A study of Mus musculus with 7 samples.

Results

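The acute phase and alarmin genes described here are 8 genes of 23361 quantified by RNASeq in macrophages from injured mouse sciatic nerve: Saa3, Lcn2, Hp, S100a8, S100a9, S100a4, S100a6 and Hmgb1. They were chosen by name, with their FPKM and fragment values in these same 7 libraries in view. Their levels and differences are therefore given below as a description, and no p-value of a single member is printed. Members that passed a test threshold (edgeR, adjusted p under 0.05) are named beside the share of all genes, also as a description. All 8 are among the 12858 genes that passed the expression filter. The macrophages came from BALB/cJ mice, an inbred strain without an engineered allele, whose sciatic nerve was transected and repaired at once with a conduit. Tissue that had grown inside the conduit, the regenerative bridge, was taken 5 days (3 libraries), 14 days (2 libraries) or 28 days (2 libraries) after repair. The later days have fewer libraries here than the number per time point that the study states. The cells were sorted as Lin-F4/80+CD14+CD11b+CD16/32+, and cells positive for Ly6G, Siglec F, CD3e, Ter119 or Thy1.2 were among those excluded. No uninjured nerve is among the libraries analysed here, and whether a library holds 1 mouse or several was not established here, so the spread between libraries may be in part technical. In bulk RNA of this kind, fewer cells of a type and less RNA per cell cannot be told apart.

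Acute phase proteins are secreted in quantity when tissue is injured or infected. Most are made by the liver under the control of IL-6 and IL-1, but some, among them serum amyloid A3, lipocalin 2 and haptoglobin, are also made by myeloid cells at the site of injury. Alarmins are intracellular proteins that signal damage once they are outside the cell. S100A8 and S100A9 form calprotectin, an abundant protein of neutrophils and of freshly recruited monocytes, while S100A4 and S100A6 are calcium-binding proteins of many motile cells and HMGB1 is a chromatin protein of nearly every nucleus. Released alarmins are sensed by TLR2, TLR4 with its partner CD14, the receptor RAGE and the formyl peptide receptors.

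The genes lie on 5 mouse chromosomes (GRCm38, the assembly named mm10 by UCSC, with GENCODE gene bounds). Saa3 spans chr7:46711998-46715700, Lcn2 chr2:32384633-32388252, Hp chr8:109575128-109579172 and Hmgb1 chr5:149046702-149184489, all on the minus strand. The 4 S100 members sit within 92.0 kb of chromosome 3. S100a4 (chr3:90603771-90606045), S100a6 (chr3:90612882-90624181) and S100a8 (chr3:90668978-90670035) are on the plus strand and S100a9 (chr3:90692632-90695721) is on the minus strand. Exons of S100a4 overlap those of Gm42674, and exons of Hmgb1 overlap those of Uspl1 and Mm2pr. Gm42674 lies on the strand of S100a4 and Mm2pr on that of Hmgb1, so strand cannot tell reads in those shared exons apart. Neither gene is among those quantified here, whereas Uspl1, on the other strand, is. The use of strand in counting is not given in the sources used here. Reads in the exons shared by Hmgb1 and Uspl1 therefore cannot be assigned with certainty. GENCODE lists 10 pseudogenes named Hmgb1-ps, so Hmgb1 is also uncertain as a near-identical family. The deposited copy Hmgb1-rs17 held 0 to 3 fragments in every library.

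RefSeq promoters (GRCm38.p6, 250 bases before the annotated start) were matched for 7 of the 8 genes. Hp had no entry. The upstream sequences of Saa3, S100a8 and S100a9 are printed because these 3 genes had the widest ranges of FPKM over the 7 libraries, with a highest level 157, 5.25 and 5.44 times the lowest. They stop where the first GENCODE exon begins. Capitals mark matches, on either strand, to a shortened NF-kappaB motif (GGNNNTTCC) or a C/EBP core (TTNCNNAA). The Saa3 sequence is chr7:46715701-46715926, minus strand, the S100a8 sequence is chr3:90668821-90668977, plus strand, and the S100a9 sequence is chr3:90695722-90695971, minus strand.
Saa3: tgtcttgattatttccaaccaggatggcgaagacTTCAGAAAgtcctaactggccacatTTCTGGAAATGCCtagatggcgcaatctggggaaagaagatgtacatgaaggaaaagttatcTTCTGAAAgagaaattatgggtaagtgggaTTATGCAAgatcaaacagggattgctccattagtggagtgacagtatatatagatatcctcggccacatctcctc
S100a8: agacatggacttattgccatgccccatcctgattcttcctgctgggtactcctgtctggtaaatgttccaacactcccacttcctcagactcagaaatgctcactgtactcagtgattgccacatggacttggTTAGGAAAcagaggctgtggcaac
S100a9: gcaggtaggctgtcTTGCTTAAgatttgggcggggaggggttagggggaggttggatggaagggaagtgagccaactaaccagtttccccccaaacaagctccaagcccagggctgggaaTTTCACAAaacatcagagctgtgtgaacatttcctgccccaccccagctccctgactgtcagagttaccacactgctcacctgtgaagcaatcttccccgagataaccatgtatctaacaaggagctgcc

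The Saa3 window held 1 NF-kappaB match and 4 C/EBP matches, and the NF-kappaB match shares bases with the C/EBP match beside it. S100a8 held 1 C/EBP match and S100a9 held 2. Lcn2 held 1 C/EBP match, 1 of the 2 annotated Hmgb1 promoters held 1 NF-kappaB match, and S100a4 and S100a6 held neither. None of the 7 genes held the STAT motif TTCNNNGAA. Of 32851 RefSeq promoters of the same length, 15.7% held the NF-kappaB letters, 36.8% the C/EBP letters and 7.02% the STAT letters. They are a description of the letters and not of factor binding.

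Total fragments assigned to genes were 18027190 to 35247116 per library. All 6 macrophage markers listed, including Emr1 (F4/80), Csf1r and Cd68, were expressed, with a summed level of 2528 to 2711 FPKM on day 5, 2057 to 2336 on day 14 and 1895 to 1986 on day 28. None of the 6 Schwann cell markers passed the expression filter. FPKM is the number of fragments scaled to transcript length and to library size, so levels of different genes can be set side by side on this scale. Values of the libraries of a day are given in the order of their replicate numbers.

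The 8 genes covered a wide range of levels. On day 5, Saa3 had the highest mean level of the 8, at 2074 FPKM ± 1328 (SD, n = 3), although its lowest library lay within the range of S100a4, the next gene. S100a4 (668 FPKM ± 95.8) was above S100a6 (439 ± 26.7), which was above S100a9 (152 ± 12.9) and S100a8 (108 ± 7.82), with no overlap between these neighbours. Hp (71.9 ± 19.2) and Hmgb1 (66.6 ± 1.88) overlapped, and Lcn2 was lowest at 7.82 ± 1.14. On day 14 S100a4, S100a6, S100a9 and S100a8 led in that order with no overlap, Hp (32.6 to 94.5 FPKM) overlapped with both Hmgb1 and Saa3, and Lcn2 was again lowest. Saa3 had moved from first to seventh place, and it stayed there on day 28. On day 28 S100a4 and S100a6 still led in that order, S100a9, S100a8, Hmgb1 and Hp overlapped, and Saa3 and Lcn2 were below them and apart from each other.

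**Figure D1:**
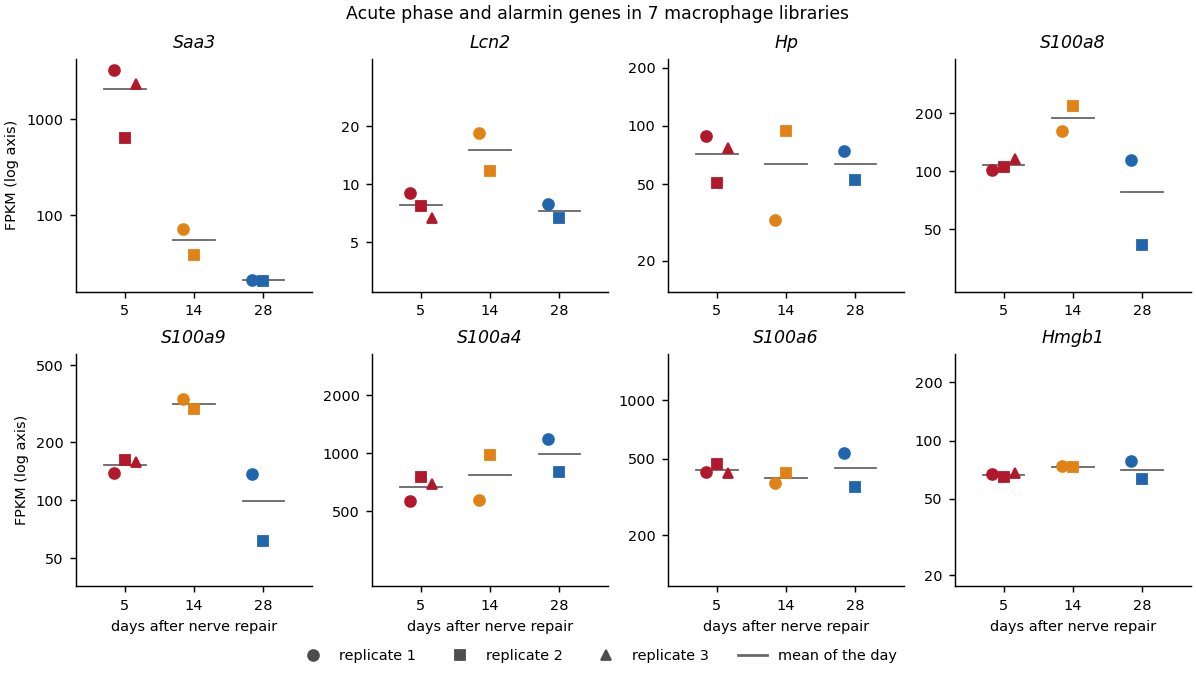
FPKM (log axis, each panel with its own range) of the 8 genes against days after nerve repair, with 1 point per library and a line at the mean of each day. Saa3 is at 640.1 to 3262 FPKM on day 5 and at 20.8 and 21.3 on day 28, S100a8, S100a9 and Lcn2 are highest on day 14, and Hmgb1 stays between 63.1 and 78.2.

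Among the acute phase genes, Saa3 changed most. It encodes the serum amyloid A that mouse macrophages themselves can make. Its level was 3262, 640.1 and 2319.6 FPKM on day 5. It was 72.2 and 38.3 FPKM on day 14, and 21.3 and 20.8 on day 28. Every day 5 library was above every later library, and the 2 day 14 libraries were above the 2 day 28 libraries. The fitted difference was 37.5-fold between day 5 and day 14 and 97.6-fold between day 5 and day 28. Between day 14 and day 28 it was 2.60-fold. The fitted log2 fold change was -5.23 (SE 0.67) from day 5 to day 14 and -6.61 (SE 0.73) from day 5 to day 28. From day 14 to day 28 it was -1.38 (SE 0.63), and -0.87 without day 14 replicate 1.

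Even after this drop, Saa3 did not leave the upper part of the expressed genes. It stood at the 99.1st to 99.9th percentile of the genes tested on day 5 and at the 73.5th to 73.6th on day 28, where it was measured with 132 and 271 fragments. The 3 day 5 libraries also differed from each other more than for most genes. Their highest level was 5.10 times the lowest, against a median of 1.23 over 12651 genes, which put Saa3 at the 97.7th percentile of this spread. On day 28 the ratio was 1.02. Its liver paralogs Saa1 and Saa2 had at most 3 and 0 fragments in any library, and Saa4 at most 1.

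Markers of monocytes moved in the same direction as Saa3. The summed FPKM of the 6 monocyte markers was 545 to 765 on day 5, 224 to 561 on day 14 and 228 to 274 on day 28. From day 5 to day 28, 5 of the 6 fell and 1 rose (edgeR, Benjamini-Hochberg), among them Ly6c2, which fell by 2.90 on the log2 scale (SE 0.66, adjusted p = 0.0206), and Plac8, which fell by 2.69 (SE 0.45, adjusted p = 0.00638). Ccr2, the chemokine receptor of inflammatory monocytes, was the one that rose, by 0.74 (SE 0.18, adjusted p = 0.0259). In day 14 replicate 1 Ly6c2 stood at 114 FPKM, above the 57.1 to 107 of day 5, whereas Saa3 was at 72.2 in that library. The part of monocyte content in the Saa3 levels was not tested.

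Lcn2, which encodes a carrier of iron-binding siderophores, was the least expressed of the 8. It was at 9.003, 7.75 and 6.72 FPKM on day 5, at 18.5 and 11.8 on day 14, and at 7.90 and 6.69 on day 28. The day 14 libraries were the highest, and the day 5 and day 28 libraries overlapped. The fitted level was 1.93 times that of day 5 on day 14 (log2 fold change 0.95, SE 0.25). It was 2.05 times lower on day 28 than on day 14 (log2 fold change -1.03, SE 0.28). Without day 14 replicate 1, its highest library, these log2 fold changes were 0.60 and -0.68. Lcn2 rested on 84 to 218 fragments per library. The library with most Lcn2, day 14 replicate 1, also had the most of the 7 fibroblast markers, which summed to 223 FPKM there, to 81.2 in day 14 replicate 2 and to 28.8 to 74.1 in the other 5 libraries. Fibroblasts were gated out by Thy1.2, whose gene Thy1 was at 0.62 to 2.06 FPKM. The part of fibroblast RNA in the Lcn2 level was not tested.

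Hp encodes haptoglobin, which binds free haemoglobin. It was at 88.4, 50.9 and 76.5 FPKM on day 5, at 32.6 and 94.5 on day 14, and at 74.0 and 52.8 on day 28. The 3 days overlapped, and both the lowest and the highest level of the 7 libraries were from day 14. The log2 fold change was -0.16 (SE 0.39) from day 5 to day 14 and -0.17 (SE 0.39) from day 5 to day 28. Without day 14 replicate 1 the first of these was 0.41, and without day 14 replicate 2 it was -1.14. The 2.90-fold gap between the day 14 libraries was wider than for 95.4% of the genes.

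The calprotectin genes S100a8 and S100a9 were highest on day 14. S100a8 was at 101, 105 and 116 FPKM on day 5, at 161 and 218 on day 14, and at 115 and 41.6 on day 28. S100a9 was at 138, 161 and 159 FPKM on day 5, at 334 and 295 on day 14, and at 137 and 61.4 on day 28. For both genes every day 14 library was above every other library. Day 28 replicate 2 had the lowest level of both, and day 28 replicate 1 was within the day 5 range for S100a8 and just below it for S100a9.

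The fitted level of S100a9 was 2.07 times as high on day 14 as on day 5 (log2 fold change 1.05, SE 0.26). On day 28 it was 3.13 times lower than on day 14 (log2 fold change -1.65, SE 0.29). For S100a8 the same folds were 1.78 (log2 fold change 0.83, SE 0.33) and 2.37 (log2 fold change -1.25, SE 0.37). The second of these depends on the day 28 libraries, since the log2 fold change was -2.19 without day 28 replicate 1 and -0.73 without day 28 replicate 2. Both steps use the same day 14 libraries, so they are not independent of each other. Between day 5 and day 28 the log2 fold change was -0.59 (SE 0.27) for S100a9 and -0.42 (SE 0.34) for S100a8. This comparison also depends on the day 28 libraries: without day 28 replicate 2 the values were -0.15 for S100a9 and 0.10 for S100a8, and without day 28 replicate 1 they were -1.30 and -1.36. S100a9 was above S100a8 in every library, at 1.19 to 2.07 times its FPKM with a median of 1.36, and the highest ratio was in day 14 replicate 1.

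**Figure D2:**
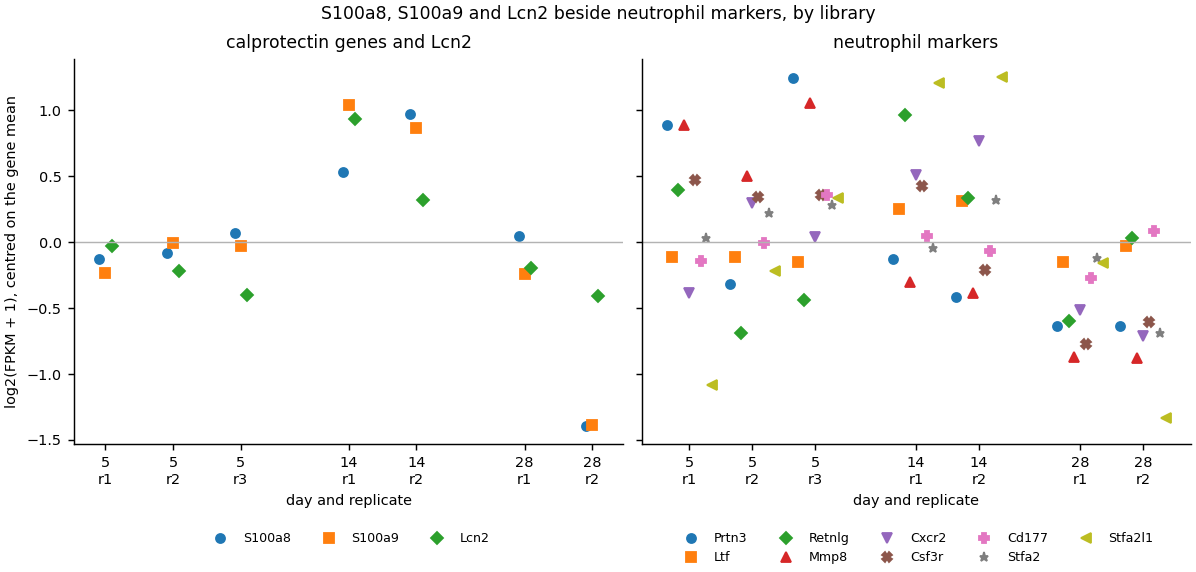
log2(FPKM + 1) centred on the mean of each gene over the 7 libraries (vertical axis), by day and replicate (horizontal axis), for S100a8, S100a9 and Lcn2 on the left and for the 9 neutrophil markers that passed the expression filter on the right. S100a8, S100a9 and Lcn2 are highest in the 2 day 14 libraries, as are Stfa2l1 and Cxcr2, while Mmp8 is highest in the day 5 libraries.

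Since S100a8, S100a9 and Lcn2 are abundant in neutrophils, the neutrophil markers are set beside them. Neutrophils were gated out by Ly6G, whose own gene was not analysed here. Of 16 listed markers, 15 were in the table and 9 passed the filter. Elane, the elastase of primary granules, had 0 fragments in every library, and Ctsg and Fcnb had at most 3. The summed FPKM of the list was 98.6 to 112 on day 5, 108 to 139 on day 14 and 56.6 to 58.4 on day 28. Csf3r, the receptor gene for G-CSF, made up 66.6 to 72.7 FPKM of the sum on day 5. Without Csf3r, a sum added after the data were seen, the other 14 markers came to 31.9 to 45.0 FPKM on day 5, 62.5 to 68.4 on day 14 and 24.5 to 26.4 on day 28. The 3 days did not overlap in this sum, whereas days 5 and 14 overlapped in the sum with Csf3r. Day 14 was highest without Csf3r, as for S100a8 and S100a9, but Stfa2l1 and Retnlg alone made up most of that day's sum. Single markers went different ways. Stfa2l1, a stefin A gene, was at 27.5 and 28.5 FPKM on day 14 and at 4.82 to 14.6 on day 5 (log2 fold change 1.55, SE 0.48, edgeR adjusted p = 0.0932). Retnlg, a resistin-like gene of neutrophils, was at 28.0 and 17.7 FPKM on day 14 and at 8.24 to 18.6 on day 5 (log2 fold change 0.90, SE 0.37, edgeR adjusted p = 0.185). Ltf, which encodes lactoferrin, had a log2 fold change of 2.31 from day 5 to day 14 (SE 0.65, edgeR adjusted p = 0.0725) on 4 to 27 fragments per library. For Cxcr2, a chemokine receptor gene, it was 0.79 (SE 0.25, edgeR adjusted p = 0.0995). Mmp8, neutrophil collagenase, fell by 1.60 on the log2 scale between the same days (SE 0.26, edgeR adjusted p = 0.0184). Prtn3 (log2 fold change -1.56, SE 0.66, edgeR adjusted p = 0.190) and Csf3r (-0.24, SE 0.17, edgeR adjusted p = 0.432) also had negative values. So did Cd177 (-0.15, SE 0.35, edgeR adjusted p = 0.827) and Stfa2 (-0.03, SE 0.58, edgeR adjusted p = 0.980). Mmp8 was the single call among the 9 markers from day 5 to day 14. By day 28, 3 of the 9 had fallen relative to day 5, namely Prtn3, Mmp8 and Csf3r. The part of neutrophil RNA in the calprotectin and Lcn2 levels was not tested.

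S100a4 and S100a6 were high throughout. S100a4, also known as fibroblast-specific protein but well expressed in macrophages, was at 563, 750.3 and 691 FPKM on day 5, at 572 and 974 on day 14, and at 1188 and 799 on day 28. Both day 28 libraries were above the 3 day 5 libraries, and the day 14 libraries overlapped with both other days. The log2 fold change from day 5 to day 28 was 0.59 (SE 0.24), and without day 28 replicate 1 it was 0.27. S100a6, whose protein calcyclin binds calcium, was at 427, 469 and 419 FPKM on day 5, at 372 and 423 on day 14, and at 534 and 356 on day 28. All 3 days overlapped, and the log2 fold changes were -0.13 (SE 0.17) from day 5 to day 14 and 0.04 (SE 0.17) from day 5 to day 28. S100a6 stood at the 98.2 percentile of the genes tested or higher in every library, and S100a4 at the 98.8 percentile or higher.

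Hmgb1 differed least. It was at 67.2, 64.5 and 68.0 FPKM on day 5, at 73.4 and 72.7 on day 14, and at 78.2 and 63.1 on day 28. The highest of the 7 libraries was 1.24 times the lowest, and the day 14 libraries were 1.01-fold apart. The log2 fold change was 0.14 (SE 0.12) from day 5 to day 14 and 0.10 (SE 0.12) from day 5 to day 28. These values refer to the transcript, while release of the protein, on which its alarmin role depends, was not measured.

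The members called in the edgeR quasi-likelihood test (adjusted p under 0.05) are given here beside the share of all genes called. From day 5 to day 14, 1 member was called, Saa3, against 4.78% of all 12858 genes. From day 5 to day 28, 1 member was called, again Saa3, against 15.2% of all genes. From day 14 to day 28, 0 members were called, against 0.0622% of all genes (8 genes). In that comparison 3 members had an unadjusted p under 0.05, as did 1570 of all 12858 genes. DESeq2 called 3 members in it, against 346 of all genes, and limma called 0. These counts are a description, since the same contrasts were known when the genes were chosen.

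Counting by overlap of FPKM, 4 members were higher and 1 lower in every day 14 library than in any day 5 library, where 43.2% of all genes did not overlap. Between day 14 and day 28, 4 members were lower and 0 higher, where 39.0% of all genes did not overlap. Between day 5 and day 28, 1 member was higher and 2 lower, where 51.5% of all genes did not overlap. The median log2 fold change of the 8 was 0.18, -0.54 and -0.12 in these 3 comparisons, and that of all genes tested was 0.03, 0.01 and 0.03.

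**Figure D3:**
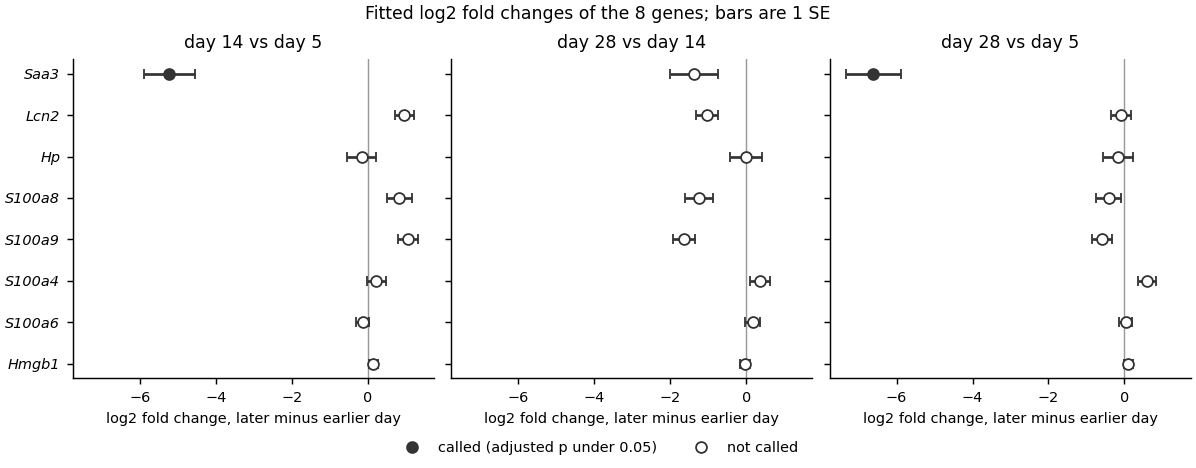
Fitted log2 fold change of each of the 8 genes, later minus earlier day (horizontal axis), in the 3 comparisons, with bars of 1 SE. Filled points passed the edgeR threshold: Saa3 at -5.23 in day 14 vs day 5 and at -6.61 in day 28 vs day 5.

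For the 3 members whose daily means of log2(FPKM + 1) spanned more than 1 log2 unit, the genes outside the 8 with the most alike profile over the 7 libraries were looked up by the root mean square difference of centred log2(FPKM + 1). For S100a9 they were Hdc, Trem3 and Gm10872, with differences of 0.14, 0.25 and 0.28. Hdc, histidine decarboxylase, was at 15.7, 20.6 and 20.0 FPKM on day 5, at 41.8 and 34.9 on day 14 and at 16.7 and 9.33 on day 28. The same 3 genes in another order were nearest to S100a8, with Gm10872 at 0.16, Trem3 at 0.28 and Hdc at 0.28. Gm10872 was at 0.40 to 4.11 FPKM and Trem3 at 1.72 to 8.68. At such low levels the added 1 narrows a gene's range more than it does for S100a8 and S100a9. Between S100a8 and S100a9 the difference was 0.23, which ranked S100a9 second among 12857 other genes. Lcn2 was further from S100a8, at 0.52, and Hp further still, at 0.76.

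Saa3 had no near neighbour by this measure, which is not scaled and so grows with the range of a gene. The daily means of Saa3 spanned 6.27 log2 units, against 1.42 for S100a8 and 1.76 for S100a9. Whether genes of smaller range share its time course cannot be read from it. The genes closest to Saa3 were Ly6a (1.44), the chemokine gene Cxcl5 (1.68) and Nos2 (1.68), the inducible nitric oxide synthase. Ly6a was at 77.8, 46.8 and 55.1 FPKM on day 5, at 23.8 and 9.21 on day 14 and at 3.25 and 1.41 on day 28. The other 7 members differed from Saa3 by 2.83 to 3.16.

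The genes around these members were taken from 5 lists with 79 genes: other acute phase genes, other S100 genes, other alarmins, receptors and binding partners, and regulators. Of these, 56 passed the expression filter, and 12 had at most 3 fragments in every library. From day 5 to day 14, 1 gene rose and 6 fell, with a median log2 fold change of -0.14. From day 5 to day 28, 7 rose and 14 fell, with a median of -0.33. Over all genes tested the medians were 0.03 and 0.03, and 4.78% and 15.2% were called. Of all genes called, 365 rose and 249 fell by day 14, and 995 rose and 965 fell by day 28. From day 14 to day 28 edgeR called 0 of the 56, while DESeq2 called 5, against 346 of all genes, and limma 0. An unadjusted p under 0.05 was found there for 13 of the 56 and for 1570 of all 12858 genes. Without any 1 of the day 5 libraries, the first count, 7 by day 14, was 0 to 2, where 52 to 106 of all genes were called. The second, 21 by day 28, was then 11 to 13, where 820 to 967 of all genes were called. Leaving out a day 14 or day 28 library also changed these counts and those over all genes.

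**Figure D4:**
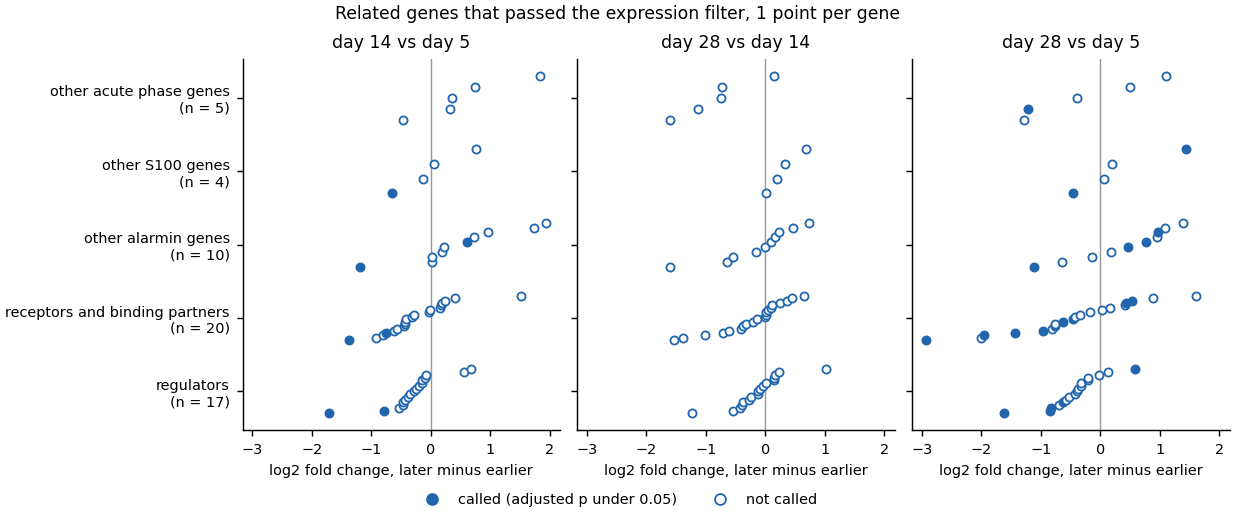
Fitted log2 fold change, later minus earlier day (horizontal axis), of each of the 56 listed genes that passed the expression filter, by list and comparison. Filled points passed the edgeR threshold: 7 genes in day 14 vs day 5, 0 in day 28 vs day 14 and 21 in day 28 vs day 5, of which 14 were lower.

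Most acute phase genes of the liver did not pass the expression filter in these macrophages. Of the other 20 acute phase genes, 9 had at most 3 fragments in every library, and Crp, Apcs and Saa2 had 0 throughout. The 5 that passed the filter had median log2 fold changes of 0.35 by day 14 and -0.39 by day 28. From day 5 to day 14, 0 of the 5 were called, and 0 by DESeq2 or limma. An unadjusted p under 0.05 was found for 3 of the 5, and for 3083 of all 12858 genes tested. The complement gene C3 fell by day 28, from 120.2 FPKM ± 26.2 (SD, n = 3) to 51.4 ± 5.48 (n = 2), a log2 fold change of -1.21 (SE 0.21, edgeR adjusted p = 0.00721). Cp, which encodes ceruloplasmin, was at 5.07 ± 1.39 FPKM on day 5 and at 7.10 ± 0.88 on day 28 (log2 fold change 0.50, SE 0.30, edgeR adjusted p = 0.285).

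Of 12 other S100 genes, 4 passed the filter, with median log2 fold changes of -0.04 by day 14 and 0.13 by day 28. S100a10, which pairs with annexin A2, fell from 746.9 FPKM ± 34.6 on day 5 to 475 ± 70.2 on day 14 (log2 fold change -0.64, SE 0.14, edgeR adjusted p = 0.0356) and was still lower on day 28 (log2 fold change -0.46, SE 0.13, edgeR adjusted p = 0.0491). S100a1 rose from 41.9 FPKM ± 4.41 on day 5 to 113 ± 38.5 on day 28 (log2 fold change 1.45, SE 0.26, edgeR adjusted p = 0.00819). S100b, the marker of Schwann cells, had at most 6 fragments in any library.

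All 10 other alarmin genes passed the filter. By day 14, 1 rose and 1 fell (median log2 fold change 0.42), and by day 28, 3 rose and 1 fell (median 0.62). Il1a, which encodes the cytokine IL-1 alpha, fell from 228 FPKM ± 41.3 on day 5 to 98.9 ± 38.1 on day 14 (log2 fold change -1.20, SE 0.24, edgeR adjusted p = 0.0310) and was at 105 ± 8.95 on day 28 (log2 fold change from day 5 -1.11, SE 0.24, edgeR adjusted p = 0.0164). Hmgn1, a nucleosome-binding protein gene, rose from 31.0 FPKM ± 3.23 to 47.1 ± 0.67 on day 14 (log2 fold change 0.61, SE 0.12, edgeR adjusted p = 0.0268) and to 52.3 ± 1.56 on day 28 (log2 fold change 0.77, SE 0.12, edgeR adjusted p = 0.00446). Anxa1, which encodes annexin A1, a ligand of the formyl peptide receptors, rose by 0.96 on the log2 scale by day 28 (SE 0.17, edgeR adjusted p = 0.00747). Lgals3, which encodes galectin 3, rose by 0.47 (SE 0.13, edgeR adjusted p = 0.0366).

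More receptor genes fell than rose. All 20 passed the filter, of which 2 passed the test by day 14, both lower, and 9 by day 28, 2 higher and 7 lower. Over all genes called, 365 were higher and 249 lower by day 14, and 995 higher and 965 lower by day 28. The median log2 fold change of the 20 receptor genes was -0.36 by day 14 and -0.45 by day 28. Of the 6 macrophage markers 2 fell as well by day 28, Emr1 and Fcgr1, and the part of cell composition in the receptor levels was not tested. The formyl peptide receptor gene Fpr1 was at 46.2, 52.8 and 34.4 FPKM on day 5, at 14.6 and 19.3 on day 14 and at 6.85 and 4.58 on day 28, with no overlap between days. It fell by 1.38 on the log2 scale by day 14 (SE 0.23, edgeR adjusted p = 0.0189) and fell by 2.92 by day 28 (SE 0.25, edgeR adjusted p = 5.41e-04). Fpr2, which also binds serum amyloid A, fell by 1.95 by day 28 (SE 0.28, edgeR adjusted p = 0.00345). Thbd, which encodes thrombomodulin, a binding partner of HMGB1, fell by 1.43 (SE 0.29, edgeR adjusted p = 0.0127). Tlr2 fell by 0.97 (SE 0.16, edgeR adjusted p = 0.00657). Cd14, whose protein was also a positive marker of the sort, fell by 0.75 by day 14 (SE 0.16, edgeR adjusted p = 0.0357) and fell by 0.76 by day 28 (SE 0.16, edgeR adjusted p = 0.0145). The other calls by day 28, named after their values were seen, were Tlr4 and Bsg, which fell, and Havcr2 and Cd24a, which rose. Ager, the gene of RAGE, was at 0.45 to 0.86 FPKM in the 7 libraries.

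All 17 regulators passed the filter, and 2 passed the test by day 14, both lower. Their median log2 fold change was -0.28 by day 14 and -0.40 by day 28. Il6 fell by 1.71 on the log2 scale (SE 0.38, edgeR adjusted p = 0.0388) and Il1b fell by 0.79 (SE 0.13, edgeR adjusted p = 0.0184). By day 28, 4 fell and 1 rose. Socs3, a feedback inhibitor induced by STAT3, fell by 1.62 (SE 0.41, edgeR adjusted p = 0.0291), Stat3 fell by 0.84 (SE 0.17, edgeR adjusted p = 0.0114) and Rela, the gene of a subunit of NF-kappaB, fell by 0.83 (SE 0.18, edgeR adjusted p = 0.0156). Il1b fell by 0.63 by day 28 (SE 0.13, edgeR adjusted p = 0.0129). The call that rose was Cebpa, a C/EBP factor, by 0.58 (SE 0.16, edgeR adjusted p = 0.0426), named after its value was seen. The day 28 libraries were apart, at 114 and 167 FPKM. Its log2 fold change was 0.27 without day 28 replicate 2, where the call was lost, and 0.83 without day 28 replicate 1, and it was called in 8 of 16 alternatives. Cebpb, a C/EBP factor that drives acute phase genes in liver, was at 1148 to 1219 FPKM on day 5 and at 894 to 912 on day 28.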

How the data were processed

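Macrophage RNA of 7 libraries was sequenced (polyA+ RNA, NEBNext Ultra, single-end). Per the submitters' processing notes, reads were trimmed with cutadapt 1.8 and mapped with TopHat2 2.0.13 (UCSC mm10), and genes were quantified by the authors with Cuffdiff 2.2.1. The deposited expected counts are the fragments estimated per gene before scaling, and 1.01% of the values are not whole. The deposited signal is these fragments after Cuffdiff scaled the libraries to a common size. The deposited FPKM values also adjust for transcript length. How the authors shared reads that map to several places is not given in the sources used here.

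After rounding, expected counts were fitted with edgeR 4.0.16 under R 4.3.3 (filterByExpr by day, TMM, quasi-likelihood F test, time point as the only factor, 4 residual degrees of freedom, Benjamini-Hochberg over 12858 genes, called at an adjusted p under 0.05). Fold changes are later minus earlier day. The SE of a log2 fold change was derived from the test, as its absolute value divided by the square root of F. Folds in plain numbers between days are these fitted log2 fold changes put back on the plain scale. Folds between libraries or between genes are ratios of FPKM. The edgeR fit was tested on simulated counts for day 14 vs day 5 only, drawn with the same dispersion for all genes. The DESeq2, limma and block fits were not tested in this way. The floor was 3 fragments and covers counting error only. Alternatives were DESeq2 1.42.0, limma 3.58.1 on log2(FPKM + 1) and log2(FPKM + 0.1), other scaling factors, no filter, fits on the 2 time points compared, a replicate block and leaving out each library.

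The 8 genes, the 5 lists and the markers were chosen with earlier results of these data known. Named were all members, in each list up to 4 called genes with the largest difference per comparison, and the 3 genes most alike to a member whose daily means span over 1 log2 unit. Motifs were searched in RefSeq promoters of GRCm38.p6. Replicate numbers come from the labels. Deviations from the day mean of libraries that share a number correlated by -0.05 to 0.17 over 7613 genes, which are not independent replicates, so the numbers were not taken as pairs.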

Additional observations from a re-analysis of the deposited data

How the results depend on the processing

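The direction of the Saa3 difference held in all 16 alternatives, from -5.74 to -4.74 on the log2 scale for day 14 vs day 5, from -1.77 to -0.87 for day 28 vs day 14 and from -7.04 to -6.09 for day 28 vs day 5. Among the member values under the alternatives, 353 kept their side of the threshold, 30 passed it only there and 1 lost it. For day 14 vs day 5, 1 member was called, against 4 with no expression filter, 3 with DESeq2, 3 when only these 2 time points were fitted and 1 to 3 without a library (2 without day 14 replicate 2, and 3 without either day 28 library). For day 28 vs day 14, 0 members were called, against 2 with no filter, 3 with DESeq2 and 0 to 2 without a library (2 without day 14 replicate 2, and 1 without either day 28 library). For day 28 vs day 5, 1 member was called, against 3 with no filter, 2 with only these time points and 1 to 3 without a library (3 without day 28 replicate 1, and 2 without either day 14 library). Listed related genes called for day 14 vs day 5 numbered 7, against 16 with no filter, 15 with DESeq2, 4 with limma on either FPKM scale and 0 to 21 without a library (2, 0 and 1 without day 5 replicates 1, 2 and 3, 21 without day 14 replicate 1, 3 without replicate 2). For day 28 vs day 14 they numbered 0, against 6 with no filter, 5 with DESeq2 and 0 to 10 without a library (1 without day 14 replicate 1, 10 without replicate 2). For day 28 vs day 5 they numbered 21, and 5 to 27 without a library (12, 11 and 13 without day 5 replicates 1, 2 and 3, 5 without day 28 replicate 1). Over all genes, edgeR called 614, 8 and 1960 in the order of the comparisons above, and DESeq2 1392, 346 and 2485. Limma on log2(FPKM + 1) called 252 and 1802 in the first and last. With no filter edgeR called 1429, 390 and 2466 of all genes. With only the 2 time points it called 315 in the first and 2778 in the last. Without day 5 replicates 1, 2 and 3 it called 63, 106 and 52 in the first. In the last it then called 820, 916 and 967. The counts over all genes also changed without a day 14 or day 28 library. A changed count of members or related genes therefore need not be particular to them. Of the related genes named, Hmgn1, Fpr1 and Fpr2 were called for day 28 vs day 5 in all 16 alternatives, and Il6 for day 14 vs day 5 and Havcr2 for day 28 vs day 5 in 6. Every related gene called kept its direction in the 16. The cause of these changes was not tested, and a fit without 1 of 2 libraries of a day assumes that the lone library varies like the other days.

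A block by replicate number leaves 2 residual degrees of freedom. With it the members called numbered 0, 0 and 1 in the order of the comparisons above, and the listed related genes 0, 0 and 9. Over all genes the block gave 6 calls for day 14 vs day 5 and 735 for day 28 vs day 5. An alternative with the day 28 numbers crossed in the block was added after seeing the data. There the members called numbered 1, 1 and 2, and 1 related gene was called for day 28 vs day 14. Over all genes the crossed block gave 357, 63 and 1579 calls.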
